A study of Mus musculus with 9 samples.

Results

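The genes described here are the well expressed members of the mouse Zfp series of zinc finger genes in round spermatids (RS), the haploid germ cells that follow meiosis. Members were chosen by name and level: a gene was included when its symbol began with Zfp and a digit, did not mark a pseudogene, and its mean over the 9 libraries was at least 200 normalized counts, a normalized count being the number of reads on the gene after division by a scaling factor for the library. This gave 154 genes of the 413 Zfp genes and 55414 genes listed. The mean over all libraries chose the genes, so their levels are given as a description. The rule held no comparison between treatments, but the libraries of a single group can lift a gene near the limit over it, as in Zfp180 and Zfp219. Just inside the limit lay Zfp979, with a mean of 201.0, and Zfp27, with 200.9. Just outside lay Zfp777, with 197.6, and Zfp607a, with 193.8.

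RS cells were sorted by flow cytometry from testes and kept in culture for 24 h. They received vehicle (0.15% DMSO), 24 mM oxamate, which inhibits lactate dehydrogenase, or the same dose of oxamate together with 0.3 mM octyl-L-2HG, a form of L-2-hydroxyglutarate (L-2HG) that enters cells. Each treatment had 3 libraries of polyadenylated RNA, numbered 1 to 3 (vehicle), 4 to 6 (oxamate) and 7 to 9 (both compounds). The labels give the genotype as WT, and the donors were adult Stra8-Tom mice of C57Bl/6 background, in which Stra8-iCre switches on tdTomato in germ cells, so all groups carry this reporter, and there was no group with octyl-L-2HG alone.

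Most Zfp genes encode proteins with fingers of the C2H2 type, in which a pair of cysteines and a pair of histidines hold a zinc ion and a short helix reads a few DNA bases. Many of them also carry a KRAB domain near the start of the protein, which binds TRIM28 and through it the histone methyltransferase SETDB1. Such proteins are known for silencing retrotransposons and for keeping the methylation of imprinted genes. Other proteins with a Zfp name bind RNA, act as ubiquitin ligases or serve as cofactors of transcription.

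To show what the members have in common, 1 finger each is printed as coding sequence (5′ to 3′, GENCODE M21 on GRCm38, minus strand except for Zfp180) for 4 members described later. Capitals mark the codons of the cysteines and histidines, and the last 15 bases encode the linker to the next finger. The Zfp39 finger lies at chr11:58890627-58890704, that of Zfp169 at chr13:48490375-48490452, that of Zfp180 at chr7:24105115-24105192 and that of Zfp748 at chr13:67541895-67541972, each inside the last coding exon of its transcript.
Zfp39: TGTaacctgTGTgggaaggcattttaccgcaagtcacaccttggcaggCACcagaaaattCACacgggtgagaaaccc
Zfp169: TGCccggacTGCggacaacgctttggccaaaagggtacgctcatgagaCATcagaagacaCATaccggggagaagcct
Zfp180: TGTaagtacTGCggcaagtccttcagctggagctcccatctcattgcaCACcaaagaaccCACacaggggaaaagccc
Zfp748: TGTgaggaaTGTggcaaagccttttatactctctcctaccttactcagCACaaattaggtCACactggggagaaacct
Over the 78 bases, pairs of these fingers shared between 36 and 47 identical bases.

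Of the 153 members with a complete coding sequence, 31 had 1 to 4 C2H2 fingers, 43 had 5 to 9 and 73 had 10 or more, up to 33 in Zfp462. The other 6 had no match to the C2H2 pattern. Among them was Zfp36l1, an RNA-binding protein with fingers of another type. A KRAB A box was found in 62 members with a wider letter pattern and in 46 with a stricter one, and 86 had fingers but no KRAB box by the wider pattern. The median number of fingers was 11.5 in the KRAB members and 7.0 in those with fingers alone. The median transcript was 3862 bases long, against 3061.5 for all genes with a mean of at least 200, and its GC content was 44.8% against 48.7%.

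Near-identical copies can share reads. A word of 75 bases, the read length in the study's methods, was looked for in transcripts of other genes. In 107 members no such word was shared, and in 14 more than 10% of the words were. The highest shares were those of Zfp991, with 80.03%, and of Zfp993, with 78.7%. Levels of members with high shares are uncertain, as are those of members that overlap another gene or have an antisense partner, since the strand setting of the counting is not given in the sources used here.

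The libraries held between 32339533 and 39888396 counted reads. The libraries held the markers of the labelled cell type: the summed level of 10 round spermatid genes, such as Prm1 and Tnp1, was 93571 to 97562 normalized counts with vehicle, 91405 to 92233 with oxamate and 86628 to 89800 with both compounds, so these ranges did not overlap. Markers of other cells summed to far less. The 5 spermatogonial markers, of which Gfra1 had the highest mean, summed to 189 to 208 with vehicle, 234 to 248 with oxamate and 226 to 237 with both compounds, so the vehicle libraries lay below the rest. The 4 macrophage markers summed to 129 to 162, 112 to 124 and 117 to 140.4 in the same order, with oxamate below vehicle. The 3 of 5 Leydig cell markers that could be tested summed to 28.4 to 38.2, 19.7 to 27.6 and 31.4 to 40.3, with oxamate below the other groups. No single marker of these 3 lists was called between a pair of groups, while Gfra1 passed the test for a difference between any of the 3 groups (adjusted p = 0.0462 in edgeR's test), and the part of these shifts in the results for the Zfp genes was not tested. The 3 of 5 Sertoli cell markers that could be tested summed to at most 6.67. The 6 spermatocyte markers summed to 6514 to 7457 with vehicle, 6621 to 6988 with oxamate and 6556 to 6838 with both compounds, so these ranges overlapped. Of these 6, 1 was called higher with oxamate against vehicle by edgeR's test, by 0.26 on the log2 scale, and its part in the Zfp results was not tested. Oxamate library 4 stood apart from oxamate libraries 5 and 6: the chi-square per degree of freedom over gene counts was 18.7 and 23.3 against 2.1 between the latter. Vehicle library 1 likewise differed more from vehicle libraries 2 and 3, by 11.9 and 11.3 against 6.5 between these, and 35 of the 154 members lay above their own mean in it, against 61 to 104 in the other libraries. The cells of each treatment were incubated in triplicate, but the sources used here do not say whether the incubations came from separate sorts or mice, so p-values measure the spread between these incubations. In bulk RNA, fewer cells of a type and less RNA per cell cannot be told apart.

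Together the 154 genes took about 1% of the reads of each library. Their share was 0.933% to 0.970% with vehicle, 0.978% to 1.00% with oxamate and 1.01% to 1.02% with both compounds, and the 3 ranges did not overlap. The levels of single members spanned from 200.9 to 31135 normalized counts, with a median of 681.

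The 5 members with the highest mean were Zfp646, Zfp654, Zfp541, Zfp451 and Zfp574, of which only Zfp541 is on the list of germ cell genes. Zfp541 encodes a germ cell protein that works with histone deacetylases and is needed to complete meiosis. Its normalized counts were 28347, 25633 and 28518 with vehicle, 30782, 26315 and 26184 with oxamate and 29781, 28486 and 28883 with both compounds. No comparison passed the threshold for Zfp541. Per kilobase of transcript it was the highest member, at 5760.0 normalized counts per kilobase, ahead of Zfp654 with 4856 and Zfp646 with 4659.6. Zfp451, a ligase of the small modifier SUMO, had 26068, 27128 and 27873 with vehicle, 24701, 28119 and 29427 with oxamate and 28769.5, 26836 and 26534 with both compounds, and its groups overlapped throughout.

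Zfp646, with 27 fingers, had 27743, 24275 and 27320.3 with vehicle, 36465, 27524 and 27544 with oxamate and 37429, 36356 and 35559.7 with both compounds. Its vehicle libraries lay below the libraries with both compounds, and oxamate library 4 lay far above the other oxamate libraries. The level was higher with both compounds than with vehicle by 0.44 ± 0.09 on the log2 scale (adjusted p = 0.000973). Here and below, adjusted p-values are those of the quasi-likelihood test in edgeR, with the Benjamini-Hochberg method applied over the 25128 genes tested, fold changes are log2 with their standard error, and a gene is called at an adjusted p under 0.05. Zfp654 had 27292, 31657 and 30933 with vehicle, 24181, 29156 and 30298 with oxamate and 33755, 32867 and 33511 with both compounds. It rose with both compounds against oxamate by 0.23 ± 0.08 (adjusted p = 0.0466), a call that was lost without oxamate libraries 4 or 5, both-compound libraries 7, 8 or 9 or vehicle libraries 2 or 3 (0.15 to 0.29 over the fits without 1 library) or with total counts as the scaling (0.19). Zfp574 had 14496, 12206 and 13522 with vehicle, 16521, 13461 and 13325 with oxamate and 16649, 16346 and 15418 with both compounds. It rose with both compounds against vehicle by 0.25 ± 0.08 (adjusted p = 0.0366), a call lost without both-compound libraries 7, 8 or 9 or vehicle libraries 2 or 3 (0.19 to 0.31 over the fits without 1 library) or with total counts as the scaling (0.18) or with the length and GC trend removed (0.09).

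All 154 members were among the genes tested. Of these, 63 differed between any of the 3 groups, which is 40.9%, against 19.8% of all genes tested and 34.2% of the genes with a mean of at least 200. Without oxamate library 4 the number was 79, or 51.3%, against 53.0% of the genes with a mean of at least 200 in the same fit, so the share was then near the background. Without both-compound library 7 it was 39, or 25.3%, against 21.7%. Each comparison of a pair of treatments is given in turn, and 85 of the 154 members were called in none of them. The same held for 5507 of the 8919 genes with a mean of at least 200 and for 19411 of the 25128 genes tested.

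**Figure D1:**
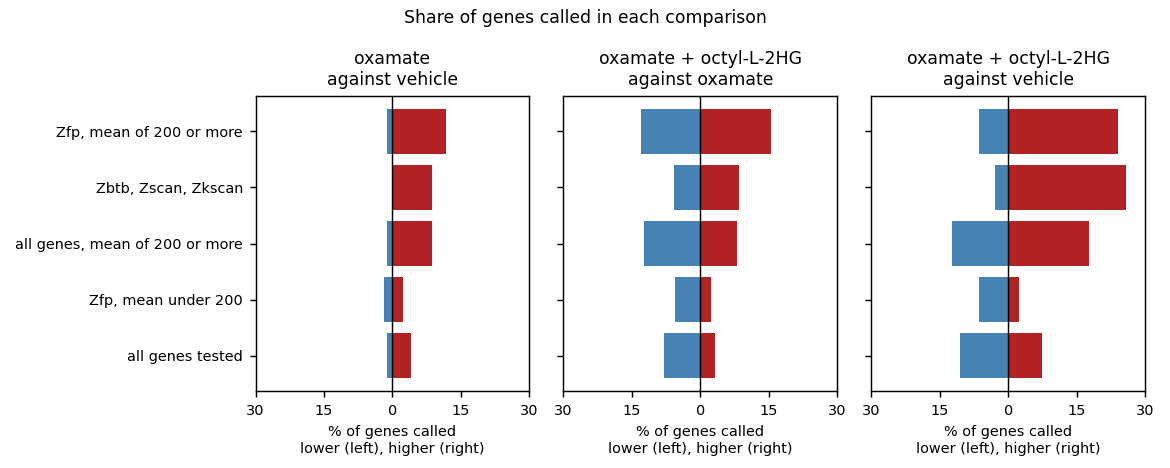
Share of genes called higher (red, to the right) and lower (blue, to the left) in the 3 comparisons, in % of the genes in each set, at an adjusted p under 0.05 in edgeR's test. With both compounds against vehicle, 24.0% of the 154 well expressed Zfp genes were called higher, against 17.6% of all genes with a mean of at least 200.

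The first comparison asks what follows when lactate dehydrogenase, which can make L-2HG, is inhibited. Oxamate raised 18 members and lowered 2 against vehicle. Among all genes tested, 3.97% were called higher and 1.22% lower, and among genes with a mean of at least 200 the shares were 8.67% and 1.29%. Of the 154 members, 11.7% were called higher and 1.30% lower, so the share called lower lay near the background and the share called higher was somewhat above it. Without oxamate library 4, 28 members (18.2%) were called higher, against 13.2% of the genes with a mean of at least 200 in the same fit. Without vehicle library 1 it was 12 (7.79%, background 6.50%) and without vehicle library 2 it was 10 (6.49%, background 4.73%). When only these 2 groups were fitted, 8 were called higher, which is 5.19% against a background of 4.83%, so the share was then near the background. With the trend on transcript length and GC content removed, the split was 16 higher and 10 lower. That is 10.4% and 6.49% of the members, against 9.05% and 3.50% of the genes with a mean of at least 200 and 4.20% and 2.22% of all genes in that fit, so there the share called lower was above the background. The libraries of the 2 groups did not overlap in 36 members on the higher side, against a background of 11.4% over all genes and 17.1% over genes with a mean of at least 200. On the lower side it was 12, against 9.95% and 10.3%. The median log2 fold change of the members was 0.04, against 0.01 for genes with a mean of at least 200 and -0.01 for all genes tested. With the length and GC trend removed it was -0.0037, against -0.0094 for genes with a mean of at least 200. Without oxamate library 4 it was 0.0725, against 0.0026.

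Zfp609 and Zfp768 showed the largest rises with oxamate. Zfp609, a partner of the cohesin loader NIPBL and of the Integrator complex, had 1333, 1226 and 1407 with vehicle, 1938, 1875 and 1854 with oxamate and 2326, 2264 and 2177 with both compounds. These 3 groups did not overlap, and Zfp609 was the only member called higher in all 3 comparisons. It rose by 0.52 ± 0.07 with oxamate against vehicle (adjusted p = 9.76e-05), by 0.23 ± 0.07 with both compounds against oxamate (adjusted p = 0.035) and by 0.75 ± 0.07 with both compounds against vehicle (adjusted p = 2.75e-07). The middle call was lost without oxamate libraries 5 or 6 or both-compound libraries 7, 8 or 9 (0.21 to 0.25 over the fits without 1 library) or with total counts as the scaling (0.19).

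Zfp768, with 10 fingers and no KRAB box, had 1779, 1547 and 1652 with vehicle, 2543, 2286 and 2283 with oxamate and 2199, 2063 and 1883 with both compounds. All oxamate libraries lay above all others. The rise against vehicle was 0.52 ± 0.08 (adjusted p = 0.000238). Zfp629 had 1387, 1394 and 1708 with vehicle, 2078, 2120.3 and 2059.9 with oxamate and 2055, 2044 and 2097 with both compounds. It rose by 0.48 ± 0.08 (adjusted p = 0.000498), and the oxamate and both-compound libraries lay in the same range, above those with vehicle.

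The members lowered by oxamate were Zfp219 and Zfp748. Without the vehicle libraries the mean of Zfp219 would lie below the limit for membership. Zfp219 is thus a member through the group where it was high, and its falls against vehicle are only described. Zfp219, known as a partner of the cartilage factor SOX9, had 237, 279 and 300.4 with vehicle, 197, 213 and 214 with oxamate and 179.7, 197 and 182 with both compounds. The oxamate libraries lay below the vehicle libraries. With both compounds, library 8 was level with the lowest oxamate library and the others lay lower, and the difference from oxamate was not called. The fall with oxamate was 0.38 ± 0.10 on the log2 scale (adjusted p = 0.0325), a call lost without oxamate libraries 5 or 6, both-compound libraries 8 or 9 or vehicle libraries 2 or 3 (-0.47 to -0.32 over the fits without 1 library) or with only these 2 groups fitted (-0.38). With both compounds against vehicle it fell by 0.57 ± 0.11 (adjusted p = 0.000561).

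**Figure D2:**
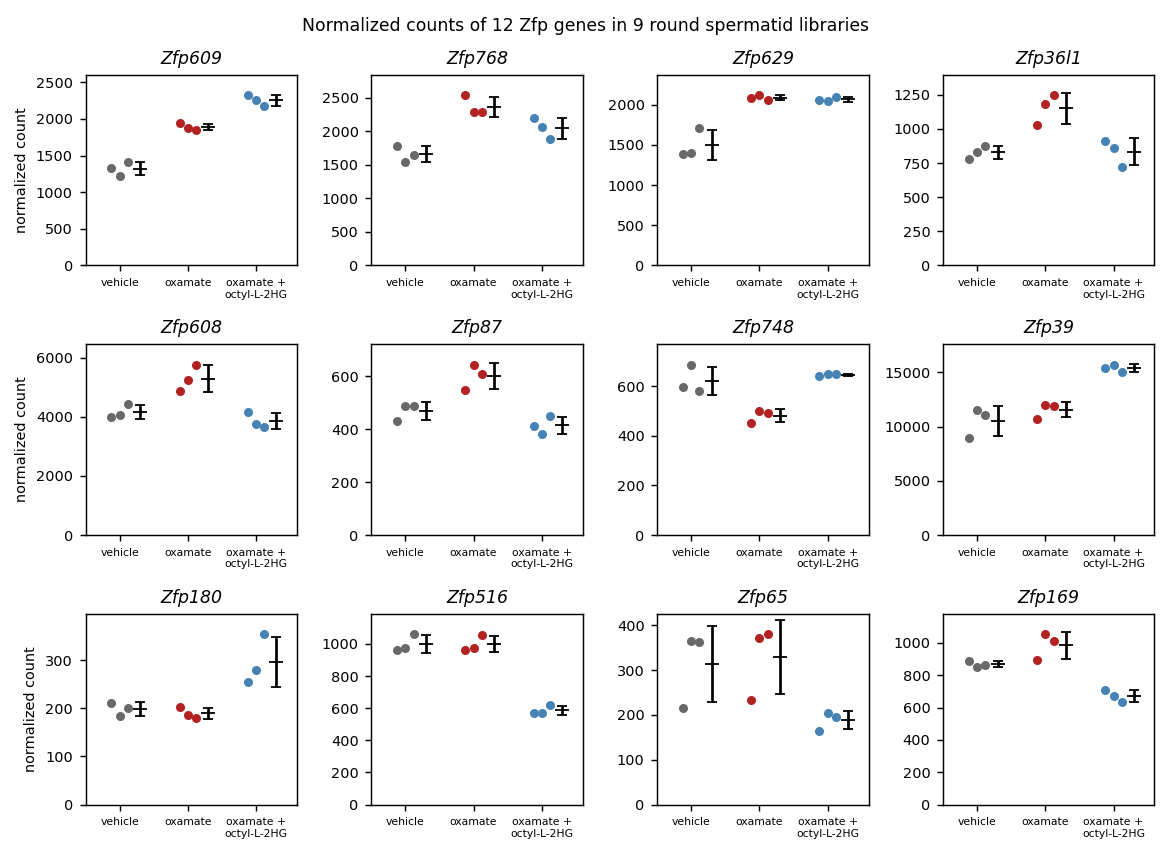
Normalized counts (y axis, linear, from 0) of 12 members in each library, with the groups on the x axis. Coloured points are libraries and the black bar and whiskers show the mean and SD of 3 libraries, and Zfp516 is seen at 569 to 621 with both compounds against 961 to 1061 in the other libraries.

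The second comparison asks what octyl-L-2HG changes in cells that also receive oxamate. Against oxamate alone, 24 members were higher and 20 lower. The background was 3.18% higher and 8.06% lower over all genes tested, and 8.04% and 12.3% over genes with a mean of at least 200. The members' shares were 15.6% higher and 13.0% lower, so the lower share lay near the background of well expressed genes while the higher share was about 2 times its background. With total counts as the scaling the split was 13 higher and 22 lower, and with DESeq2's size factors it was 31 and 17, so the direction of the split depends on the scaling. Under total counts 4.10% of the genes with a mean of at least 200 were higher and 16.2% lower, against 8.44% and 14.3% of the members, and under DESeq2's size factors the shares were 11.2% and 10.8%, against 20.1% and 11.04% of the members. The number called higher was 8 without both-compound library 7 (5.19%, against 2.25% of the genes with a mean of at least 200 in the same fit), 9 without library 8 (5.84% against 2.74%), 10 without library 9 (6.49% against 3.94%) and 14 without oxamate library 5 (9.09% against 3.23%). The number called lower was 13, or 8.44%, without oxamate library 5 (background 7.71%) and likewise without both-compound library 8 (7.55%) or 9 (8.77%). The groups did not overlap in 56 members on the higher side (background 13.4% over all genes and 26.8% over well expressed genes) and in 25 on the lower side (background 15.3% and 17.7%). The members' median log2 fold change was 0.05, against 0.02 for genes with a mean of at least 200 and -0.04 for all genes tested.

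The largest rise against oxamate was that of Zfp180, whose finger is printed above. Without the libraries with both compounds its mean would lie below 200, so Zfp180 is a member through the group where it was high. Its rises are therefore only described. It had 211, 184 and 199.6 with vehicle, 202, 186 and 179.8 with oxamate and 255, 279 and 354 with both compounds. Vehicle and oxamate libraries overlapped and lay below those with both compounds. The rise was 0.62 ± 0.12 (adjusted p = 0.00164), and against vehicle it was 0.56 ± 0.12 (adjusted p = 0.00167). Zfp281 and Zfp148, related factors that bind G-rich DNA, followed the same order. Zfp281 had 199.9, 221 and 186 with vehicle, 198, 223 and 217 with oxamate and 325, 256 and 288 with both compounds, and Zfp148 had 203, 244 and 234 with vehicle, 218, 258 and 275 with oxamate and 378, 310.1 and 299 with both compounds. Against oxamate Zfp281 rose by 0.42 ± 0.11 (adjusted p = 0.0145) and Zfp148 by 0.37 ± 0.11 (adjusted p = 0.0369). The Zfp281 call was lost without both-compound libraries 7 or 9 (0.34 to 0.50 over the fits without 1 library) and the Zfp148 call without oxamate libraries 4 or 5 or both-compound libraries 7 or 8 (0.26 to 0.43 over the fits without 1 library) or with total counts as the scaling (0.32).

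Zfp800, Zfp788 and Zfp998 completed the largest rises. Zfp800 had 586, 720.3 and 597 with vehicle, 498, 679 and 673 with oxamate and 849, 839 and 818 with both compounds, with a rise of 0.41 ± 0.10 (adjusted p = 0.0118). Zfp788, a KRAB member with 23 fingers, had 546, 666 and 621 with vehicle, 444, 577 and 546 with oxamate and 691, 693 and 737 with both compounds, with a rise of 0.41 ± 0.10 (adjusted p = 0.00794). In both genes oxamate library 4 was the lowest of the 9. Zfp998 had 227, 326 and 223 with vehicle, 219, 269 and 265 with oxamate and 346, 348 and 329.5 with both compounds, with a rise of 0.42 ± 0.13 (adjusted p = 0.036), and 10.2% of its 75-base words were shared. The Zfp800 call was lost without both-compound libraries 7 or 8 (0.28 to 0.49 over the fits without 1 library), the Zfp788 call without both-compound library 9 (0.31 to 0.49 over the fits without 1 library) and the Zfp998 call without oxamate libraries 4 or 5 or both-compound libraries 7, 8 or 9 (0.33 to 0.47 over the fits without 1 library) or with total counts as the scaling (0.37).

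The largest falls against oxamate were those of Zfp65, Zfp516, Zfp941, Zfp169 and Zfp184. Zfp516, a factor known for driving the brown fat programme, had 961, 975 and 1061 with vehicle, 963, 977 and 1058 with oxamate and 570.5, 569 and 621 with both compounds. Vehicle and oxamate libraries lay together and all above the libraries with both compounds. It fell by 0.79 ± 0.08 against oxamate (adjusted p = 1.7e-06) and by 0.79 ± 0.08 against vehicle (adjusted p = 5.49e-07). Zfp65, a KRAB member, had 215, 364 and 363 with vehicle, 234, 372 and 380.4 with oxamate and 165, 204 and 196 with both compounds. Vehicle library 1 and oxamate library 4 lay far below the other libraries of their groups, yet above each library with both compounds. It fell by 0.82 ± 0.19 against oxamate (adjusted p = 0.00736), a call lost without both-compound library 7 (-1.02 to -0.72 over the fits without 1 library).

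Zfp169, a KRAB member with 17 fingers, had 889, 854 and 865 with vehicle, 893, 1055 and 1012 with oxamate and 709, 669.7 and 633 with both compounds. It fell by 0.58 ± 0.08 against oxamate (adjusted p = 6.34e-05) and by 0.40 ± 0.08 against vehicle (adjusted p = 0.00115). Zfp184, also a KRAB member, had 563, 544 and 645 with vehicle, 412, 582 and 614 with oxamate and 331, 398 and 379 with both compounds and fell by 0.56 ± 0.12 against oxamate (adjusted p = 0.00369). Zfp941 had 254, 279.6 and 288 with vehicle, 269.6, 389 and 356 with oxamate and 237, 212 and 214 with both compounds and fell by 0.64 ± 0.12 (adjusted p = 0.00111). In these 3 genes each oxamate library lay above all libraries that received both compounds, and oxamate library 4 was the lowest of its group.

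The third comparison sets both compounds against vehicle. Here 37 members were higher and 10 lower. The background was 7.48% higher and 10.6% lower over all genes tested, and 17.6% and 12.4% over genes with a mean of at least 200. The members' shares were 24.0% higher and 6.49% lower, so in this fit fewer of them were lower than in either background. With total counts as the scaling 28 were higher and 16 lower, or 18.2% and 10.4%, against 11.2% and 17.6% of the genes with a mean of at least 200. With the trend on length and GC content removed 32 were higher and 26 lower. These are 20.8% and 16.9% of the members, against 17.6% and 16.6% of the genes with a mean of at least 200 and 7.67% and 12.4% of all genes in that fit, so the lower share was then no longer below the background. Without both-compound library 7, 22 were called higher (14.3%, background 10.7%), and without vehicle library 1, 27 were (17.5%, background 13.7%). The groups did not overlap in 63 members on the higher side (background 18.0% over all genes and 36.6% over well expressed genes) and in 16 on the lower side (background 18.5% and 18.2%). The median log2 fold change was 0.09 for the members, 0.04 for genes with a mean of at least 200 and -0.05 for all genes tested. Of the 10 round spermatid markers, 2 were called higher and 6 lower in this comparison, 1 higher and 4 lower with oxamate against vehicle, and 0 higher and 4 lower with both compounds against oxamate by edgeR's test (2 and 6 at an unadjusted p under 0.05). Prm1, Prm2, Tnp1 and Tnp2, which pack the DNA of maturing spermatids, were lower in all 3 comparisons, and the part of these shifts in the Zfp results was not tested.

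By level, of the 38 members with the highest means 17 were called higher and 0 lower with both compounds against vehicle by edgeR's test. At an unadjusted p under 0.05, 20 of these were higher and 1 lower. The shares were 44.7% higher for these members and, for the 3721 genes at or above their lowest mean of 1758, 20.5% higher and 8.71% lower. Of the 39 members with the lowest means 8 were higher and 4 lower, or 20.5% and 10.3%, against 11.6% and 18.2% of the 1641 genes in the same range of level. In between, 5 of 38 members (13.2%) and 7 of 39 (17.9%) were higher, near or below the 17.6% of all genes with a mean of at least 200. Lower were 3 (7.89%) and 3 (7.69%), against 12.4%. This last background was not matched for level.

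Zfp39 was among the abundant members that rose. This KRAB gene with 12 fingers had 8953, 11563 and 11089 with vehicle, 10742, 11988 and 11914 with oxamate and 15411, 15732 and 15062 with both compounds. All libraries with both compounds lay above the other 6, and vehicle library 1 was the lowest. The rise was 0.53 ± 0.08 against vehicle (adjusted p = 5.56e-05) and 0.39 ± 0.08 against oxamate (adjusted p = 0.00239). The largest falls against vehicle, beside Zfp516, Zfp65, Zfp184 and Zfp219, included Zfp618, with 378, 410.4 and 363 with vehicle, 265, 318 and 326 with oxamate and 253, 222 and 211 with both compounds. It fell by 0.77 ± 0.10 (adjusted p = 1.72e-05), with the oxamate libraries between the other groups.

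**Figure D3:**
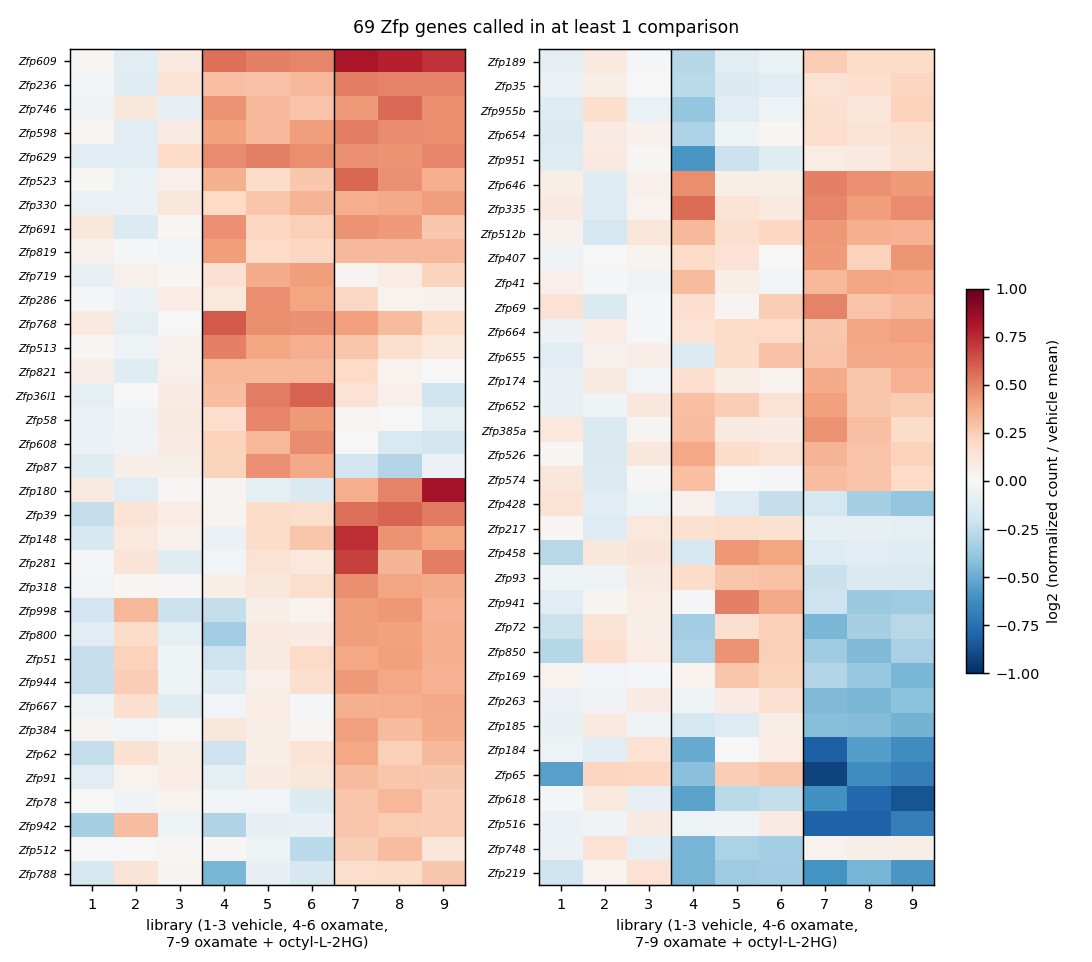
The 69 members called in at least 1 comparison (rows) in 9 libraries (columns), coloured by log2 of the normalized count over the mean of the vehicle libraries, from -1 (blue) to 1 (red). Rows are ordered by their calls, oxamate against vehicle first, and most of the called members are red in libraries 7 to 9.

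Of the members raised by oxamate, 7 were lower again when octyl-L-2HG was added: Zfp768, Zfp513, Zfp821, Zfp608, Zfp36l1, Zfp58 and Zfp87. Among all genes tested 1.09% did so, and among genes with a mean of at least 200 it was 2.24%. Both comparisons use the same oxamate libraries, so a chance excursion of these libraries appears in both, and each comparison's values are given. The 7 are 4.55% of the members. The number was 14 (9.09%) without oxamate library 4, where 4.72% of the genes with a mean of at least 200 did so, and 3 (1.95%) without oxamate library 5, against 1.03%. It was 4 (2.597%) without vehicle library 2, both-compound library 8 or both-compound library 9, against 1.402%, 1.121% and 1.267%.

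Zfp36l1 binds AU-rich elements in messenger RNA and promotes its decay. It had 778, 830.2 and 876 with vehicle, 1026, 1182 and 1249 with oxamate and 914, 858 and 722 with both compounds. It rose by 0.48 ± 0.09 with oxamate (adjusted p = 0.00197) and fell by 0.50 ± 0.09 when octyl-L-2HG was added (adjusted p = 0.000962), and the libraries with both compounds overlapped those with vehicle. Zfp608, a close relative of Zfp609, had 4013, 4069.6 and 4425 with vehicle, 4878, 5246 and 5777 with oxamate and 4156, 3760.3 and 3665 with both compounds. It rose by 0.35 ± 0.07 (adjusted p = 0.00456) and fell by 0.48 ± 0.07 (adjusted p = 0.000148). Zfp609 rose in the second step where Zfp608 fell, by the values given above.

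Zfp821 had 4066, 3585 and 4025 with vehicle, 4901, 4867 and 4910.1 with oxamate and 4462, 3989 and 3910.2 with both compounds. It rose by 0.33 ± 0.07 (adjusted p = 0.00458) and fell by 0.27 ± 0.07 (adjusted p = 0.0118), the fall being lost without both-compound libraries 8 or 9 (-0.33 to -0.24 over the fits without 1 library). Zfp513, linked to disease of the retina, had 404, 387 and 412 with vehicle, 569, 527 and 515 with oxamate and 486, 447 and 432 with both compounds. Its rise of 0.43 ± 0.08 had an adjusted p of 0.00313, and its fall of 0.27 ± 0.08 had one of 0.0431. For Zfp768 the fall was 0.24 ± 0.08 (adjusted p = 0.0483). These last falls were the least stable: that of Zfp768 was called in 4 of 17 alternatives and that of Zfp513 in 5. The Zfp768 fall was lost without oxamate libraries 4 or 5, both-compound libraries 7, 8 or 9 or vehicle libraries 2 or 3 (-0.29 to -0.18 over the fits without 1 library), and the Zfp513 fall without oxamate libraries 4 or 5, both-compound libraries 7, 8 or 9 or vehicle libraries 2 or 3 (-0.31 to -0.22 over the fits without 1 library). Both falls were also lost with DESeq2 as the test, with DESeq2's size factors, without a filter on low counts and with only these 2 groups fitted, and that of Zfp768 with edgeR's own filter on low counts.

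The KRAB genes Zfp87 and Zfp58 were of the same kind. Zfp87 had 429, 488 and 486 with vehicle, 546, 644 and 609.5 with oxamate and 411, 383 and 448 with both compounds. It rose by 0.36 ± 0.09 (adjusted p = 0.0196) and fell by 0.56 ± 0.09 (adjusted p = 0.000456). Zfp58 had 332, 339 and 370.0 with vehicle, 392, 487 and 466 with oxamate and 353, 346 and 327 with both compounds, but 49.6% of its 75-base words occur in another gene. It rose by 0.37 ± 0.09 (adjusted p = 0.019) and fell by 0.42 ± 0.09 (adjusted p = 0.00574). The rise of Zfp87 was lost without oxamate libraries 5 or 6 or vehicle library 1 (0.30 to 0.42 over the fits without 1 library) or with only these 2 groups fitted (0.36), the rise of Zfp58 without oxamate libraries 5 or 6 or vehicle libraries 1 or 2 (0.31 to 0.46 over the fits without 1 library) or with only these 2 groups fitted (0.37) and its fall without oxamate library 5 (-0.50 to -0.35 over the fits without 1 library).

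Zfp748 was the only member to go the other way, as 0.0438% of all genes tested and 0.101% of those with a mean of at least 200 did. This KRAB gene with 23 fingers had 599, 688 and 582 with vehicle, 452, 499.5 and 492 with oxamate and 640.1, 650.1 and 649 with both compounds. The oxamate libraries lay below all others, and the libraries with both compounds lay inside the vehicle range. It fell by 0.37 ± 0.09 with oxamate (adjusted p = 0.0113) and rose by 0.40 ± 0.09 when octyl-L-2HG was added (adjusted p = 0.00384). The fall was lost without vehicle library 2 (-0.43 to -0.29 over the fits without 1 library) or with only these 2 groups fitted (-0.37).

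In the annotation used for gene order, 17 pairs of members were direct neighbours, and Zfp87 and Zfp748 were such a pair. Their called changes were opposite in both steps. Among the other neighbours, Zfp719 and Zfp819 both rose with oxamate. Zfp719, named after its values were seen, had 347, 378 and 369 with vehicle, 405, 471 and 487 with oxamate and 372, 385 and 426 with both compounds, and rose by 0.32 ± 0.09 (adjusted p = 0.0484), a call kept in 5 of 17 alternatives and lost without oxamate libraries 5 or 6, both-compound libraries 7, 8 or 9 or vehicle libraries 1, 2 or 3 (0.27 to 0.39 over the fits without 1 library) or with total counts as the scaling (0.30) or with only these 2 groups fitted (0.32). Zfp236, also named after its values were seen, is the neighbour of Zfp516. It had 2233, 2094 and 2497 with vehicle, 2799.8, 2793 and 2841 with oxamate and 3239.9, 3201 and 3202 with both compounds, and rose by 0.48 ± 0.07 with both compounds against vehicle (adjusted p = 3.82e-05), where Zfp516 fell.

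The protein classes are given side by side. With both compounds against vehicle, 28 of 86 members with fingers and no KRAB box rose and 6 fell, or 32.6% and 6.98%, with a median log2 fold change of 0.16. In the KRAB class 8 of 62 rose and 3 fell, or 12.9% and 4.84%, with a median of 0.05. Of the genes with a mean of at least 200, 17.6% rose and 12.4% fell, so the share of rises lay above the background in the first class and below it in the KRAB class. The classes were not tested against each other. Against oxamate alone, both compounds left the KRAB class with 11 members up and 9 down (17.7% and 14.5%) and the class without a KRAB box 13 up and 9 down (15.1% and 10.5%), against a background of 8.04% and 12.3%. With oxamate against vehicle there were 5 rises and 1 fall in the KRAB class (8.06% and 1.61%) and 11 rises and 1 fall in the other (12.8% and 1.16%), against 8.67% and 1.29%. The stricter KRAB pattern gave 4 members up and 2 down of its 46 with both compounds against vehicle. The median level of the KRAB members was 495 normalized counts, against 906 for the members with fingers alone, so the classes also differ in level.

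**Figure D4:**
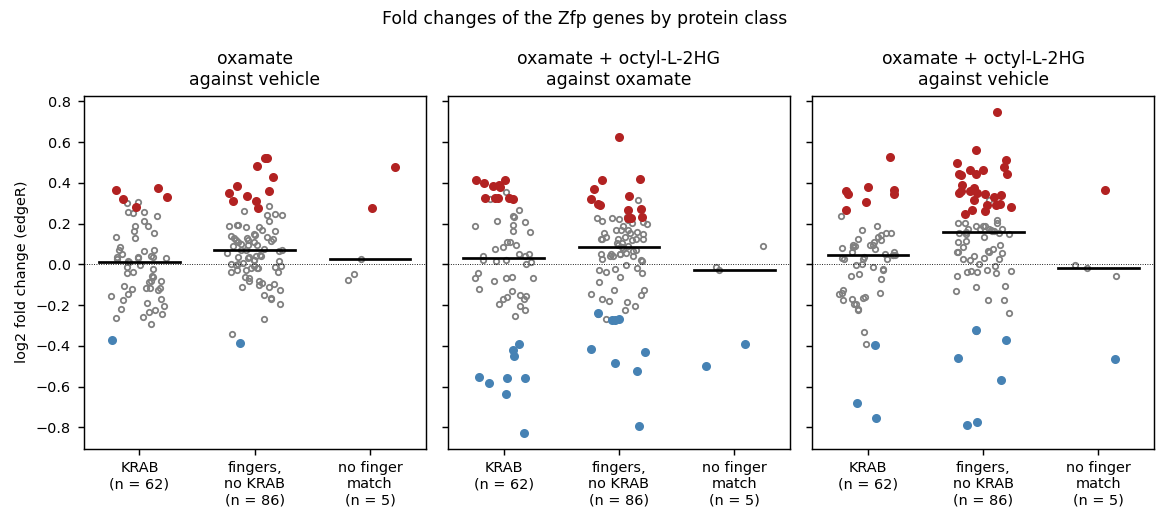
Log2 fold change (y axis) of each member by protein class (x axis) in the 3 comparisons. Red points were called higher, blue points lower and open points not at all, and the black bar is the median, which with both compounds against vehicle is 0.16 for members with fingers and no KRAB box and 0.05 for KRAB members.

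Among genes that code for nuclear cofactors and signalling factors, 17 of 20 listed genes were members, and with both compounds against vehicle 8 rose and 2 fell, or 47.1% and 11.8%, where 17.6% of genes with a mean of at least 200 rose and 12.4% fell. With oxamate against vehicle 2 rose and 1 fell (11.8% and 5.88%, background 8.67% and 1.29%), and with both compounds against oxamate 4 rose and 3 fell (23.5% and 17.6%, background 8.04% and 12.3%). This list and those that follow were chosen with earlier results of these data known, so their shares are descriptions. Beside Zfp609, Zfp281 and Zfp148, the rises included Zfp384, with 2302, 2212 and 2262 with vehicle, 2437, 2368 and 2287 with oxamate and 3002, 2810.4 and 2915 with both compounds and a rise of 0.34 ± 0.07 (adjusted p = 0.000683). Zfp335, a regulator needed for neural progenitors, had 454, 390.5 and 439 with vehicle, 631, 469.7 and 458 with oxamate and 599, 572 and 594 with both compounds. It rose by 0.44 ± 0.11 (adjusted p = 0.00575), and oxamate library 4 was the highest of the 9. Zfp664, Zfp407 and Zfp652 also rose, the last not without both-compound libraries 7, 8 or 9 or vehicle libraries 1 or 2 (0.25 to 0.35 over the fits without 1 library) or with total counts as the scaling (0.23) or with the length and GC trend removed (0.19) and Zfp407 not without both-compound libraries 7 or 9 (0.30 to 0.42 over the fits without 1 library) or with the length and GC trend removed (0.25). The falls were those of Zfp516 and Zfp219.

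Zfp217, a member of repressor complexes with the demethylase LSD1, had 12232, 11023 and 12967 with vehicle, 13385, 13644 and 13440.0 with oxamate and 11392, 11417 and 11345 with both compounds. It fell by 0.27 ± 0.06 when octyl-L-2HG was added to oxamate (adjusted p = 0.0077). Zfp143, which binds many promoters, had 582, 603 and 603 with vehicle, 613, 643 and 725 with oxamate and 689.5, 659 and 699 with both compounds and was called in no comparison. Zfp462, Zfp644, Zfp711 and Zfp423 were likewise not called, with means of 938, 1248, 1714 and 1045 normalized counts.

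Of 18 listed genes that act on RNA, ribosomes or ubiquitin, 13 were members. Oxamate raised 3 of them, Zfp36l1, Zfp598 and Zfp330, and lowered 0 by edgeR's test. The rises are 23.1% of the list, against 8.67% of genes with a mean of at least 200. At an unadjusted p under 0.05, 5 were higher and 0 lower. Against oxamate, both compounds raised 1 and lowered 1, or 7.69% each, against 8.04% and 12.3%. Zfp598, the ubiquitin ligase that marks collided ribosomes, had 1131, 1028 and 1181 with vehicle, 1469.9, 1393 and 1491 with oxamate and 1586, 1549 and 1538 with both compounds. Its vehicle libraries lay below all others. It rose by 0.39 ± 0.07 with oxamate (adjusted p = 0.0019) and by 0.46 ± 0.07 with both compounds against vehicle (adjusted p = 8.44e-05). Zfp330, a nucleolar protein, had 1920.0, 1929 and 2177 with vehicle, 2305, 2439 and 2540.0 with oxamate and 2584, 2613 and 2685 with both compounds and rose by 0.28 ± 0.07 with oxamate (adjusted p = 0.0195), a call lost without oxamate libraries 5 or 6 or vehicle libraries 1 or 2 (0.25 to 0.33 over the fits without 1 library) or with only these 2 groups fitted (0.28).

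Both compounds against vehicle gave 4 rises among the 13 (30.8%, background 17.6%): Zfp598, Zfp330, Zfp91 and Zfp385a. Zfp91, a ubiquitin ligase of the NF-kB pathway, had 6264, 6954 and 7122 with vehicle, 6323, 7191 and 7343 with oxamate and 8420.4, 8218 and 8195 with both compounds and rose by 0.27 ± 0.07 (adjusted p = 0.00872), a call lost without vehicle library 1 (0.21 to 0.30 over the fits without 1 library). Zfp385a had 7226, 6079 and 6867 with vehicle, 8308, 7168 and 7106 with oxamate and 9165, 8262 and 7620.1 with both compounds and rose by 0.29 ± 0.08 (adjusted p = 0.0142), a call lost without both-compound library 7 or vehicle library 2 (0.22 to 0.35 over the fits without 1 library). Zfp106, Zfp207, Zfp277, Zfp326, Zfp593, Zfp622, Zfp638 and Zfp706 were called in no comparison.

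Of 18 listed genes that guard imprints or silence retrotransposons, 7 were members. Only 1 of them, 14.3%, differed between the groups, against 34.2% of the genes with a mean of at least 200. Zfp819, which acts on retrotransposons in germ cells, had 1566, 1505 and 1496 with vehicle, 2033, 1742 and 1753 with oxamate and 1909, 1905 and 1909 with both compounds. It rose by 0.28 ± 0.07 with oxamate (adjusted p = 0.0273) and by 0.30 ± 0.07 with both compounds against vehicle (adjusted p = 0.00564), and the first call was lost without both-compound library 8 or vehicle libraries 2 or 3 (0.20 to 0.32 over the fits without 1 library) or with only these 2 groups fitted (0.28). Zfp57, which keeps imprints methylated, had 2099.5, 1985 and 2097 with vehicle, 2292, 2092 and 2071 with oxamate and 2045, 2089 and 2144 with both compounds. Zfp445, another guardian of imprints, had 689, 839 and 799 with vehicle, 669.7, 774 and 749 with oxamate and 845, 900.3 and 884 with both compounds. In Zfp57 the groups overlapped. Zfp809, which silences murine leukaemia proviruses, had 387, 413 and 397 with vehicle, 374, 377 and 351 with oxamate and 407, 412 and 394 with both compounds, with the oxamate libraries lowest. Zfp738, Zfp758 and Zfp992 were not called either, and 34.5% of the 75-base words of Zfp992 were shared.

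Among 9 members known from germ cells, 2 rose when octyl-L-2HG was added to oxamate (22.2%, against 8.04% of genes with a mean of at least 200) and 0 fell by edgeR's test. At an unadjusted p under 0.05, 4 were higher and 1 lower. Against vehicle, 1 rose with both compounds (11.1%, background 17.6%), and with oxamate 0 were called higher and 0 lower by edgeR's test, where 0 were higher and 1 lower at an unadjusted p under 0.05 (background 8.67% and 1.29%). Zfp318, first described in testis as a cofactor of the androgen receptor, had 7426, 7655 and 7612 with vehicle, 7915, 8166 and 8537 with oxamate and 10465, 9957 and 9764 with both compounds. It rose by 0.27 ± 0.06 against oxamate (adjusted p = 0.00584) and by 0.39 ± 0.06 against vehicle (adjusted p = 8.79e-05). Zfp35, a gene known from pachytene spermatocytes, had 6215, 6743 and 6453 with vehicle, 5374, 5849 and 6015 with oxamate and 7145, 7257 and 7514 with both compounds. It rose by 0.32 ± 0.07 against oxamate (adjusted p = 0.00247), and the oxamate libraries lay below the other groups. Zfp37, known for its expression in spermatids, had 7497, 9235 and 8550.0 with vehicle, 6602, 9003 and 9475 with oxamate and 8738, 8179.9 and 8111 with both compounds, with oxamate library 4 the lowest. Zfp105, Zfp296, Zfp474, Zfp541, Zfp59 and Zfp597 were called in no comparison. Of the Z3 complex, in which ZMYND8 joins zinc finger partners, Zfp592 had a mean of 2663 and Zfp687 one of 3147 normalized counts, and neither was called.

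The partners of KRAB proteins were followed as a list of 18 genes. Like the other lists, it was chosen with earlier results of these data known, so its shares are descriptions. With both compounds against vehicle 10 of the 18, or 55.6%, rose and 0 fell by edgeR's test, where 17.6% of genes with a mean of at least 200 rose and 12.4% fell. At an unadjusted p under 0.05, 12 were higher and 1 lower. These counts are from the main fit only. Some of the rises lay near the threshold, such as those of Atf7ip (adjusted p = 0.0332) and Cbx1 (adjusted p = 0.0348). The rise of Cbx3 against vehicle was lost with total counts as the scaling. With both compounds against oxamate 5 rose and 0 fell, with 10 higher and 1 lower at an unadjusted p under 0.05 (background 8.04% and 12.3%). With oxamate against vehicle 3 rose and 1 fell (background 8.67% and 1.29%). The co-repressor Trim28 itself was abundant and not called, with 20672, 17113 and 18544 with vehicle, 22465, 17496 and 16494 with oxamate and 18252, 18827 and 19084 with both compounds. Setdb1, the methyltransferase it brings, had 1677, 1594 and 1637 with vehicle, 1874, 1685 and 1597 with oxamate and 2079.8, 2148 and 2191 with both compounds. Setdb1 rose by 0.37 ± 0.07 with both compounds against vehicle (adjusted p = 0.00109).

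Cbx3, a heterochromatin protein, had 1374, 1486 and 1419 with vehicle, 1216, 1339.7 and 1373 with oxamate and 1671, 1685 and 1777 with both compounds and rose by 0.36 ± 0.07 against oxamate (adjusted p = 0.0023). Morc3 had 293, 275 and 282 with vehicle, 417, 385 and 424 with oxamate and 425, 412 and 435 with both compounds. The vehicle libraries of Morc3 lay below all others, and it rose by 0.53 ± 0.09 with oxamate (adjusted p = 0.000645). Resf1, a partner of SETDB1 in silencing retroviruses, had 135, 139 and 118 with vehicle, 89.5, 85.7 and 89.9 with oxamate and 103, 108 and 114 with both compounds and fell by 0.56 ± 0.12 with oxamate (adjusted p = 0.00841), a call lost without vehicle library 2 (-0.64 to -0.51 over the fits without 1 library).

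Other finger families are given for comparison. Of 35 Zbtb, Zscan and Zkscan genes with a mean of at least 200, 9 rose and 1 fell with both compounds against vehicle, or 25.7% and 2.86% against 17.6% and 12.4% of all genes at that level. With both compounds against oxamate 3 rose and 2 fell (8.57% and 5.71%, background 8.04% and 12.3%), and 3 rose (8.57%, background 8.67%) and 0 fell with oxamate by edgeR's test, where 8 were higher and 0 lower at an unadjusted p under 0.05. The 216 Zfp genes tested with a mean under 200 had 5 genes up and 14 down with both compounds against vehicle, or 2.31% and 6.48% against 7.48% and 10.6% of all genes tested, with a median log2 fold change of -0.02. Low counts also limit which of them can pass the test.

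Promoters of 127 members were matched by symbol in RefSeq on GRCm38.p6, from 250 bases before to 50 bases after the start. The cAMP response element TGACGTCA, the site of the spermatid factor CREM, reads the same on both strands. It was found in 6 of them, or 4.72%, against 4.06% of 6962 promoters of genes with a mean of at least 200 and 2.92% of all 15650 promoters of genes tested. The motif of ZNF143 (ACTACAA, either strand) was found in 11, or 8.66%, against 5.19% of the well expressed genes. The GC box GGGCGG was found in 57.5% against 62.1%. These shares are descriptions and mark no site of binding. The 6 stretches with the full element are printed, in the direction of the gene, with the element in capitals and 20 bases on each side, since it is the site of CREM.
Zfp335: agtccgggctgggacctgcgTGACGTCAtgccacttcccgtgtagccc
Zfp367: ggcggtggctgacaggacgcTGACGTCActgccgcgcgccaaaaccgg
Zfp426: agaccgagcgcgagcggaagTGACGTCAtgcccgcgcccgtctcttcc
Zfp523: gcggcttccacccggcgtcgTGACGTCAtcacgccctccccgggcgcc
Zfp72: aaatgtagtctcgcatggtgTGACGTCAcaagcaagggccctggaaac
Zfp868: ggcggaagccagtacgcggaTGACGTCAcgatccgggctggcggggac
They lie at chr2:164911789-164911836, chr13:64152451-64152498, chr9:20492741-20492788, chr17:28177114-28177161, chr13:74390832-74390879 and chr8:69625176-69625223, in the same order, on the plus strand for Zfp523 and the minus strand for the others.

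The genes with this element differed in their calls. Zfp523 had 1198, 1134 and 1228 with vehicle, 1520.4, 1348 and 1431 with oxamate and 1765, 1627 and 1525 with both compounds and rose by 0.28 ± 0.08 with oxamate (adjusted p = 0.0334), a call lost without oxamate library 6, both-compound library 8 or vehicle libraries 1, 2 or 3 (0.23 to 0.32 over the fits without 1 library) or with the length and GC trend removed (0.19) or with only these 2 groups fitted (0.28). Zfp72 had 804, 1026 and 971 with vehicle, 733, 1041 and 1104 with oxamate and 679, 744 and 771 with both compounds and fell by 0.41 ± 0.12 with both compounds against oxamate (adjusted p = 0.0257), a call lost without oxamate libraries 5 or 6 or both-compound libraries 7, 8 or 9 (-0.57 to -0.31 over the fits without 1 library). Zfp335 rose with both compounds against vehicle, as given above, and Zfp367, Zfp426 and Zfp868 were called in no comparison, with means of 749, 663 and 299 normalized counts.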

How the data were processed

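RNA of round spermatids was measured in 9 libraries, 3 per treatment. The authors deposited whole-number counts of reads per gene, without normalization, together with a normalized signal, obtained by dividing each count by the DESeq2 size factor of its library. Per the labels' processing notes and the methods, reads were trimmed with cutadapt 2.10, aligned with TopHat2 2.1.1 to GRCm39 with Ensembl annotation and counted with HTSeq 2.01, and DESeq2 1.36.0 gave the normalization. Sequencing instruments differ between the labels and the methods. Reads that match several genes, overlapping genes or antisense genes may be dropped or misplaced by such counting.

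Groups and library numbers came from the labels. The 6250 genes without counts were omitted. Genes needed 10 counts in total over the libraries, which left 25128 for the test in edgeR 4.0.16 under R 4.3.3 (TMM, robust quasi-likelihood, all 9 libraries in 1 fit with the group as the term, Benjamini-Hochberg, threshold 0.05). The standard error is the absolute log2 fold change over the square root of F. The fit was tested on simulated data. Total counts per library ran from 32339533 to 39888396. Alternatives were DESeq2 1.42.0, other scalings and filters, a threshold of 0.01, other limits for membership, removal of a trend on transcript length and GC content, fits of 2 groups and the omission of each library. Transcripts, coding sequences and gene order came from GENCODE M21 on GRCm38, matched by gene identifier, and promoters from RefSeq, so no coordinates of the files were used. Fingers were found as C, 2 to 4 residues, C, 12 residues, H, 3 to 5 residues, H. The wider KRAB pattern was added after the data were seen.

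The members and lists were chosen with earlier results of these data known. Named in the text are the 5 largest rises and falls of each comparison among called members whose libraries do not overlap, members moved in opposite directions by the 2 treatments, the 5 highest means, those next to the limit of 200 and those on the lists. Zfp719, Zfp236, Zfp991, Zfp993 and the members with the cAMP element fall outside that rule, unless they are on a list. Only some of the KRAB partners are named, and no rule set in advance chose those shown.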

Additional observations from a re-analysis of the deposited data

How the results depend on the processing

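No paired analysis was made, because the library numbers 1 to 9 are not shared between groups and no label ties libraries across them. Any spread shared by libraries of different groups thus stays in the error of the test. With 1 library omitted at a time, the members differing in any group numbered 39 to 79, those higher with oxamate than vehicle 10 to 28 and lower 0 to 3, those higher with both compounds than oxamate 8 to 29 and lower 13 to 25, those higher with both compounds than vehicle 22 to 47 and lower 8 to 15, and those up with oxamate and down again with octyl-L-2HG 3 to 14. The median log2 fold change with oxamate against vehicle ran from 0.0199 to 0.0725. These ends came without oxamate libraries 6 and 4, where the genes with a mean of at least 200 had medians of 0.0229 and 0.0026.

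At an adjusted p under 0.01 the counts in the same order were 39, 9, 0, 8, 12, 22, 8 and, for the raised and lowered members, 2. At this threshold and at other limits for membership no share over all genes was computed, so these counts stand without a background. With a mean of at least 500 for membership, 1 member was lower with oxamate, 10 were lower with both compounds than oxamate, 4 lower than vehicle and 4 raised and lowered, and the medians against vehicle were 0.0674 with oxamate and 0.134 with both compounds. Fits of only the groups compared gave 8 members higher with oxamate (5.19%, against 4.83% of the genes with a mean of at least 200). They gave 0 lower, against 0.448%, and 3 raised and lowered. Members lower with oxamate numbered 4 with DESeq2 as the test, 4 with total counts as the scaling, 6 with no filter on low counts and 10 with the trend on transcript length and GC content removed. Total counts gave 13 members higher with both compounds than oxamate (8.44% against 4.10%) and 16 lower than vehicle (10.4% against 17.6%). The medians in these comparisons were 0.00841 and 0.0226, against -0.0240 and -0.0192 for the genes with a mean of at least 200. Without a filter the medians were 0.098 and 0.132, against 0.0650 and 0.0897. With the trend removed, 26 members were lower with both compounds than vehicle (16.9% against 16.6%), with a median of 0.023 against 0.0098. The median with oxamate against vehicle turned to -0.00370, where that of the genes with a mean of at least 200 was -0.0094. The causes were not tested. Over all called changes of named genes and alternatives run, 1231 values stayed past the threshold, 197 did not and 0 changed direction. At 3 libraries per group an exact permutation of the labels of a single gene could not give a two-sided p below 0.10.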
